A study of Mus musculus with 12 samples.

Results

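Differentiation of embryonic stem (ES) cells into neural progenitor cells (NPC) switches many genes on, and 7 of the 14899 genes in the deposited table, Fam38b, Galr2, Gfra1, Fzd2, Frmd3, Jakmip2 and Nav3, rose by very different amounts in the F1-21.6 and F1-23 lines. They were chosen by name because their ES to NPC rise, measured in these same libraries, was larger in F1-21.6 than in F1-23. The size of that difference, the rises and the levels they are made of are therefore given as a description, with no test. The share of counts from each parental allele was not used in the choice and was tested.

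The study compared allelic expression before and after neural differentiation in mouse cells. Both ES lines are hybrids of the strains 129Sv and Cast/EiJ, so that sequence differences tell the alleles apart. Each line is 1 library, and each gave 4 NPC clones with 1 library per clone. The groups were the F1-21.6 NPC clones (XX, labelled female, clones 129, C2, G4 and E1.2), the F1-21.6 ES line they came from, the F1-23 NPC clones (XY, labelled male, clones mC3, mE6, mB4 and mG3) and the F1-23 ES line. No transgene, allele edit or treatment other than differentiation is given for any of them. The ES lines were kept with serum and leukaemia inhibitory factor on inactivated mouse embryonic fibroblasts, and polyadenylated RNA was sequenced as read pairs of 100 bases. Line, sex chromosomes and the ES culture cannot be told apart with 1 line of each kind, and the NPC clones of a line share that line, so their spread says nothing of other lines. Library names begin with GEI for the F1-21.6 NPC clones and with GUR for both ES lines and the F1-23 NPC clones. What the prefix stands for is not given. In the difference of rises and between the clone sets it cannot be told apart from line. Within F1-21.6 it cannot be told apart from cell type, so every comparison of those NPC clones with their ES line also crosses prefixes. The F1-23 clones and their ES line share a prefix.

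The 7 genes act at the cell surface and in the cell's interior. Fam38b, now called Piezo2, is an ion channel opened by mechanical force and is known for touch and proprioception in sensory neurons. Galr2 is a G protein-coupled receptor for the neuropeptide galanin. Gfra1 is the lipid-anchored co-receptor that binds GDNF and presents it to the Ret kinase or to Ncam1, and is known from neural crest and motor neurons. Fzd2 is a Frizzled receptor for Wnt ligands, which control self-renewal in both ES cells and neural progenitors. Frmd3 is a FERM domain protein of the cell cortex. Jakmip2 belongs to a small family of coiled-coil proteins named for binding Janus kinases and microtubules, and Nav3 is a microtubule plus-end protein of the neuron navigator family.

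Galr2, Gfra1 and Frmd3 had no count at all in F1-21.6 ES cells. They are also the 3 of the 7 members that RefSeq's promoter table matched, and their promoters are shown for that reason. The sequences are RefSeq's on GRCm38.p6, a different build from that of the counts, and run from 250 bases before the gene's start to 50 bases after it, 5′ to 3′ on the gene's strand. Capitals mark a GC box, searched as GGGCGG on both strands, so that CCGCCC is the same motif on the other strand.
Frmd3 (chr4:74013353-74013652, plus strand): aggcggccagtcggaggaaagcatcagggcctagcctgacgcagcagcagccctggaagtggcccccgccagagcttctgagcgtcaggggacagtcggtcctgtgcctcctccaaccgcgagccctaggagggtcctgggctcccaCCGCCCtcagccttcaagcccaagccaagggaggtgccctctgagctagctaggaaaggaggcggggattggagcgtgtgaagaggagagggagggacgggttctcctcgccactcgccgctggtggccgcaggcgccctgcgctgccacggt
Galr2 (chr11:116280689-116280988, plus strand): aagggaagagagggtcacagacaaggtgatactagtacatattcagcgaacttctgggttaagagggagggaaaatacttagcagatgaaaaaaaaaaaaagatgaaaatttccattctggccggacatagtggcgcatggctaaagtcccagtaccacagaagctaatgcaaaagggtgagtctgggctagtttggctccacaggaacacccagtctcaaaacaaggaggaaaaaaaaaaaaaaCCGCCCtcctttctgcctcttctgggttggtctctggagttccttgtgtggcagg
Gfra1 (chr19:58455349-58455648, minus strand): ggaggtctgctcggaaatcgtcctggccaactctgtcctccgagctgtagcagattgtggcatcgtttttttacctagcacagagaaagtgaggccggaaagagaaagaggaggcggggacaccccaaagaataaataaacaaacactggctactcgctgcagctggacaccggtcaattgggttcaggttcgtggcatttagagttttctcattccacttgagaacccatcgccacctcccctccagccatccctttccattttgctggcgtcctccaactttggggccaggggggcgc

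The 3 windows are unlike in base composition. G and C made up 68.0% of the Frmd3 promoter, 54.0% of that of Gfra1 and 45.7% of that of Galr2, against a median of 52.7% over the 32851 promoters of the table. The ratio of observed to expected CpG was 0.55 in Frmd3 and 0.549 in Gfra1, above the median of 0.384, and 0.262 in Galr2, below it. Frmd3 and Galr2 each hold 1 GC box and Gfra1 holds none, while 35.7% of all promoters hold at least 1. None of the 3 windows contains the letters TATAAA, which 13.6% of all promoters do. Frmd3 and Gfra1 each contain CCAAT on either strand once, a motif found in 37.4% of all promoters.

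The libraries held 61375911 to 119266777 counts each, and the ES lines were the shallowest of the F1-21.6 and F1-23 sets. A count here is an allele-informative count, so its level in CPM (counts scaled to a fixed effective library size) also reflects how many strain differences a transcript carries, and levels are compared between genes only as the authors' FPKM. Markers went with the labelled cell types: the 6 pluripotency genes in the table summed to 3.16 to 6.19 CPM in the F1-21.6 NPC clones and 2236 CPM in their ES line, and to 4.27 to 6.87 CPM in the F1-23 NPC clones and 1170 CPM in theirs. The 17 neural progenitor genes in the table summed to 7801 to 10050 CPM in F1-21.6 NPC clones and 528 CPM in their ES line. In F1-23 the sums were 9647 to 10900 CPM in clones and 574 CPM in ES cells. Of these genes Olig2 and Fabp7 had 0 counts in both ES lines and were present in all 8 clones. Sox2 went the other way, with 114.7 CPM in F1-21.6 ES cells and 22.3 to 33.0 CPM in their clones. In F1-23 Sox2 had 103.9 CPM in ES cells and 33.4 to 44.95 CPM in clones. Cspg4 was under the ES line in every F1-21.6 clone, with 0.398 to 1.998 CPM against 3.355 CPM, and in some F1-23 clones. Hes5 and Sox1 were under their ES line in some clones.

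The genes lie on 5 chromosomes of build mm9 (GENCODE vM1 annotation), and all are protein-coding. Fam38b spans chr18:63169866-63546904 on the minus strand, Jakmip2 chr18:43685867-43847427 on the minus strand, Galr2 chr11:116141439-116148279 and Fzd2 chr11:102465744-102469372 on the plus strand. Gfra1 is at chr19:58307460-58530597 on the minus strand, Frmd3 at chr4:73659205-73848118 on the plus strand and Nav3 at chr10:109118111-109438012 on the minus strand. Fzd2 has a single exon, while the longest transcript of Fam38b has 52 exons. Gfra1 overlaps the antisense transcript Gm16277 and Frmd3 overlaps the pseudogene Gm11760 on its own strand. Strand use in counting is not stated, so reads of those pairs cannot be told apart.

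All 7 members passed the filter on low counts. Every clone of both lines was above its ES line for every member, with 1 exception, Galr2 in clone mB4. The contrast that chose them, the rise in F1-21.6 minus the rise in F1-23, passed the edgeR quasi-likelihood test at an adjusted p of 0.05 for 15 of 14848 genes (0.101%), 12 of them in the direction of the larger rise in F1-21.6 (0.0808%) and 3 in the other (0.0202%), a total that was 3 to 30 with 1 clone left out. The members are 7 of those 12 by their selection, so nothing is read from that count. The other genes in that direction were Zfp608, Xist, Nfia, Fat3 and Hoxb3. In F1-21.6 51.2% of all genes were called between NPC clones and ES cells, 28.0% higher and 23.3% lower, and in F1-23 47.3% were, 25.0% higher and 22.3% lower, so a rise in itself is common.

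**Figure D1:**
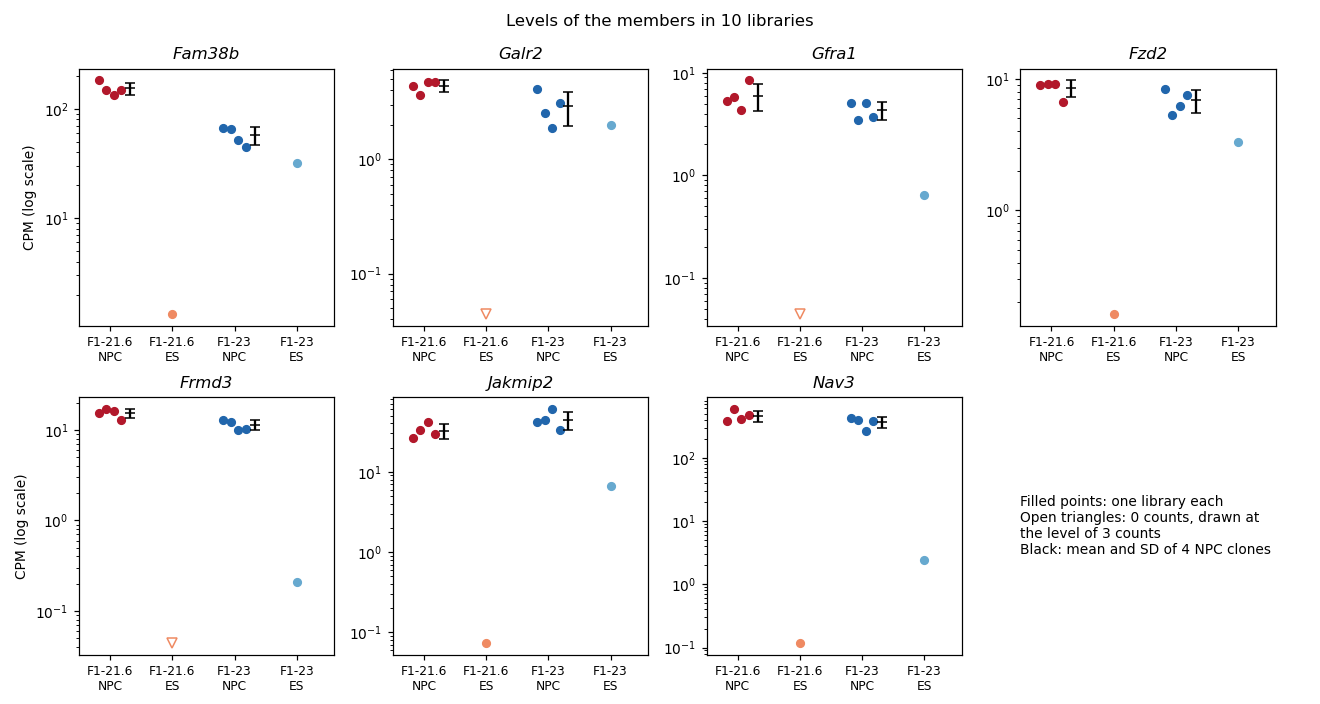
Level of each member in all 10 libraries, in CPM on a log axis, with a panel per gene. Each filled point is 1 library, an open triangle stands for 0 counts drawn at the level of 3 counts, and black bars give the mean and SD of the 4 NPC clones of a line. In all 7 panels the F1-21.6 ES library is the lowest, while F1-23 ES ranges from inside the spread of its clones (Galr2) to 151-fold under their mean (Nav3).

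Among the surface receptors and channels, Fam38b gave the deepest counts in ES cells and the widest gap between the NPC sets. It had 182, 149, 134 and 149 CPM in the F1-21.6 NPC clones 129, C2, G4 and E1.2, against 1.33 CPM in F1-21.6 ES cells. In F1-23 it had 66.2, 65.6, 51.5 and 45.1 CPM in clones mC3, mE6, mB4 and mG3, against 31.9 CPM in ES cells. Every F1-21.6 clone was above every F1-23 clone, and F1-23 ES cells were below their clones by less than the F1-21.6 ES cells were. The mean rise by counts was 115-fold in F1-21.6 and 1.79-fold in F1-23, and in FPKM 47.3-fold in F1-21.6 and 1.81-fold in F1-23. The NPC means were 153 ± 20.4 CPM in F1-21.6 and 57.1 ± 10.5 CPM in F1-23 (SD, n = 4 each), a 2.69-fold difference.

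Galr2 was a weakly read gene in every library. The F1-21.6 clones 129, C2, G4 and E1.2 had 4.395, 3.61, 4.73 and 4.73 CPM, and their ES line had 0 counts. The F1-23 clones mC3, mE6, mB4 and mG3 had 4.09, 2.52, 1.87 and 3.09 CPM, and their ES line had 2.003 CPM from 142 counts. Galr2 in F1-23 ES cells thus lay inside the range of its own NPC clones, and the 2 sets of clones overlapped in 1 clone, mC3. By counts, set against a floor of 3 counts, the rise was 98.5-fold in F1-21.6, while the mean of the F1-23 clones was 1.45-fold above their ES line. In FPKM the rise was 17.8-fold in F1-21.6 and 1.24-fold in F1-23.

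Gfra1 had 5.30, 5.75, 4.34 and 8.46 CPM in the F1-21.6 clones in the same order, against 0 counts in their ES line. It had 5.11, 3.44, 5.12 and 3.69 CPM in the F1-23 clones, against 0.649 CPM (46 counts) in F1-23 ES cells. The clone sets overlapped, and E1.2 was the highest clone of all. By counts the rise came to 134-fold in F1-21.6, set against the floor of 3 counts, and 6.69-fold in F1-23. In FPKM it came to 19.5-fold in F1-21.6 and 10.5-fold in F1-23.

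Fzd2 had 9.01, 9.17, 9.19 and 6.65 CPM in the F1-21.6 clones and 0.163 CPM, from 11 counts, in their ES line. In the F1-23 clones it had 8.35, 5.27, 6.24 and 7.56 CPM, against 3.30 CPM from 234 counts in the ES line. The clone sets overlapped, and F1-23 ES cells were under all 4 of their clones. By these means the Wnt receptor was 52.3-fold higher in NPC than in ES cells of F1-21.6 and 2.08-fold higher in F1-23. Its rise in FPKM was 20.95-fold in F1-21.6 and 2.12-fold in F1-23.

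The remaining members act inside the cell. Frmd3 had 15.3, 16.8, 16.0 and 12.9 CPM in the F1-21.6 clones, against 0 counts in their ES line. It had 12.9, 12.3, 9.92 and 10.3 CPM in the F1-23 clones, against 0.212 CPM, from 15 counts, in their ES line. The lowest F1-21.6 clone, E1.2 with 12.88 CPM, was barely above the highest F1-23 clone, mC3 with 12.86 CPM, so the sets did not overlap but touched. By counts the rise was 344-fold in F1-21.6, set against the floor of 3 counts, and 53.6-fold in F1-23. In FPKM it was 449-fold in F1-21.6 and 44.0-fold in F1-23.

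Jakmip2 ran the other way among the clones. The F1-21.6 clones had 25.9, 33.0, 41.7 and 29.6 CPM, against 0.0739 CPM, from 5 counts, in ES cells. The F1-23 clones had 41.4, 43.4, 60.1 and 33.0 CPM, against 6.59 CPM from 467 counts in ES cells. Jakmip2 was the sole member with the higher NPC mean in F1-23, 32.6 ± 6.76 CPM in F1-21.6 and 44.5 ± 11.3 CPM in F1-23 (SD, n = 4 each), and the clone sets overlapped. The rise by counts was 441-fold in F1-21.6 and 6.75-fold in F1-23, and in FPKM 73.4-fold in F1-21.6 and 6.90-fold in F1-23.

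Nav3 was the most strongly counted member in the clones. It had 385, 586, 407 and 466 CPM in the F1-21.6 clones, against 0.118 CPM from 8 counts in their ES line. It had 426, 388, 264 and 380 CPM in the F1-23 clones, against 2.41 CPM from 171 counts in theirs. The clone sets overlapped, and both ES lines were far under them. The rise by counts was 3897-fold in F1-21.6 and 151-fold in F1-23, where it was the largest among the members. Its rise in FPKM was 976-fold in F1-21.6 and 216-fold in F1-23.

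**Figure D2:**
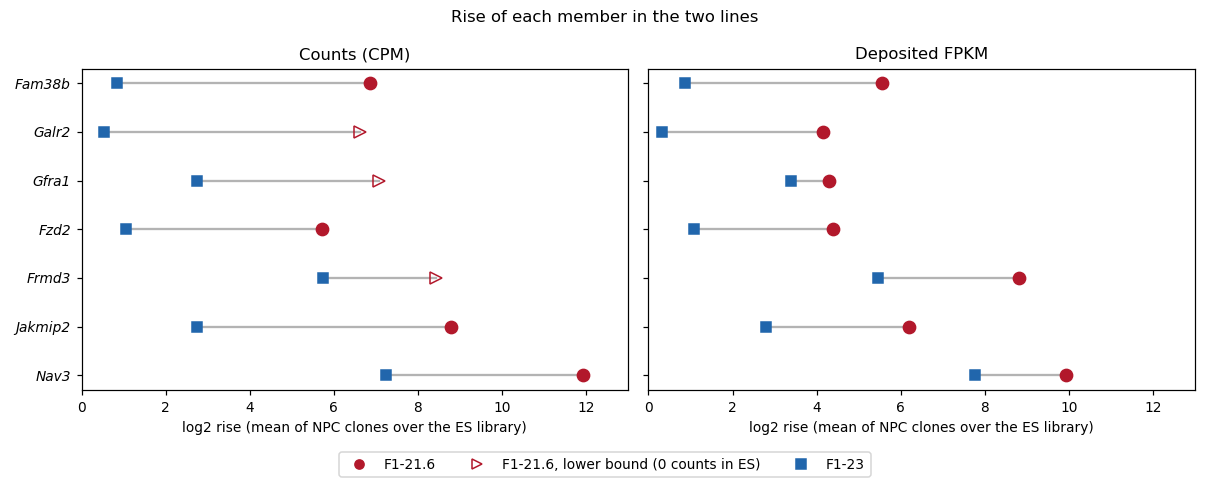
Rise of each member, as log2 of the mean of the 4 NPC clones over the ES library, from CPM (left) and from the deposited FPKM (right). Circles are F1-21.6, with open triangles where the ES library had 0 counts and the rise is a lower bound, and squares are F1-23. Every member lies further right in F1-21.6 on both scales, but the gap for Gfra1 shrinks to 1.85-fold in FPKM.

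The difference in rise came mostly from the ES lines and less from the clones. On the log2 scale it can be split into the gap between the ES lines and the gap between the NPC means. The ES part was 76.3% for Fam38b, 84.1% for Frmd3, 89.4% for Gfra1, 90.3% for Galr2, 92.8% for Nav3, 93.3% for Fzd2 and 107.5% for Jakmip2, where the NPC part had the opposite sign. For the 3 genes at 0 counts these shares use the floor of 3 counts.

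Levels in F1-21.6 ES cells were small as a percentage of those in F1-23 ES cells. They came to 1.12% for Jakmip2 (95% interval 0.363 to 2.64), 4.17% for Fam38b (3.34 to 5.15), 4.90% for Nav3 (2.08 to 9.88) and 4.93% for Fzd2 (2.43 to 8.98). The genes at 0 counts were set to the floor of 3 counts. F1-21.6 ES cells were then lower than F1-23 ES cells, by 45.2-fold for Galr2, 14.6-fold for Gfra1 and 4.77-fold for Frmd3. With counting error in both libraries, the 95% intervals of their percentages reached up to 2.76% for Galr2, 8.75% for Gfra1 and 29.2% for Frmd3. The intervals are exact and cover counting error only, since each ES line is 1 library. A gap of 5-fold or more in this direction was seen for 346 of 14848 genes (2.33%) and in the opposite direction for 1.17%, and 6 of the 7 members were past it by counts. The value of Frmd3, set at the floor, does not say on which side of 5-fold it lies. In FPKM the levels in F1-23 ES cells were 1.67 times those in F1-21.6 ES cells for Gfra1 and 3.65 times for Nav3, both under 5-fold, and 8.39 to 16.2 times for the other members. Because these same libraries chose the members, these values are a description.

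How far F1-23 ES cells already stood toward the NPC level varied widely among the members. As a percentage of the mean of the F1-23 clones, F1-23 ES cells had 69.2% for Galr2, 55.9% for Fam38b and 48.2% for Fzd2. They had 15.0% for Gfra1 and 14.8% for Jakmip2, and only 1.86% for Frmd3 and 0.662% for Nav3. In F1-21.6 the highest such percentage was 1.91%, for Fzd2. Galr2, Fam38b and Fzd2 were thus nearest to their NPC levels in F1-23 ES cells, while Frmd3 and Nav3 were far under theirs in the ES cells of both lines.

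Between the clone sets, the mean of F1-21.6 over that of F1-23 ran from 0.732-fold for Jakmip2 to 2.69-fold for Fam38b. Likeness of the sets was not tested. By CPM the 2 sets of clones did not overlap for Fam38b and Frmd3, both higher in F1-21.6, while 16.4% of all genes did not overlap, 7.85% higher in F1-21.6 and 8.59% lower. In FPKM the non-overlapping members were Fam38b and Galr2. The edgeR test between the clone sets called 0.741% of all genes, 0.512% higher and 0.229% lower in F1-21.6. The SD of log2 CPM over the F1-21.6 clones was 0.17 to 0.40 for the members, against a median of 0.37 over all genes tested. Over the F1-23 clones it was 0.19 to 0.48, against a median of 0.23. The medians were taken with a prior count of 2 added and the members' SDs without it. The contrast that chose the members draws its spread from these clones and so favours a small SD. Nothing is therefore read from the medians.

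The FPKM values, which the authors made with length scaling, kept the direction for all 7 members and gave smaller gaps than the counts for all but Frmd3, whose count-based gap of 6.41-fold rests on the floor of 3 counts. The rise in F1-21.6 was 26.1-fold that in F1-23 for Fam38b, 14.3-fold for Galr2, 10.6-fold for Jakmip2, 10.2-fold for Frmd3 and 9.88-fold for Fzd2. It was 4.52-fold for Nav3 and 1.85-fold for Gfra1. Gfra1 was listed at 0.163 FPKM in F1-21.6 ES cells and 0.272 FPKM in F1-23 ES cells, although F1-21.6 ES cells had no allele-informative count of it. Galr2 and Frmd3, also at 0 counts, were listed at 0.0564 and 0.0221 FPKM. The larger count-based gap for Gfra1 was therefore not matched by the FPKM.

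Per length, Fzd2 was the highest member in NPC cells, with 14.4 ± 1.99 FPKM in F1-21.6 and 13.4 ± 2.39 FPKM in F1-23 (SD, n = 4 each). Nav3 followed in F1-21.6, with 10.3 ± 1.92 FPKM, against 8.29 ± 1.59 FPKM in F1-23, and Frmd3 had 9.89 ± 0.694 and 8.65 ± 1.25 FPKM in the clones of F1-21.6 and F1-23. Jakmip2 had 6.35 ± 1.42 FPKM in F1-21.6 and 9.65 ± 2.65 FPKM in F1-23. Fam38b, for all its counts, had 4.00 ± 0.708 and 1.47 ± 0.35 FPKM in the same order, and Gfra1 had 3.17 ± 1.29 and 2.86 ± 0.752 FPKM. Galr2 was lowest, at 1.002 ± 0.0561 FPKM in F1-21.6 and 0.588 ± 0.19 FPKM in F1-23.

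The ES lines also differed in markers that move with cell state. All 6 pluripotency genes in the table were higher in F1-21.6 ES cells than in F1-23 ES cells, by widely varying amounts. Tcfcp2l1 had 1229 CPM in F1-21.6 and 419.5 CPM in F1-23, while Klf2 was nearly even, with 27.91 CPM in F1-21.6 and 27.77 CPM in F1-23. Of 17 neural progenitor genes, 8 were higher in F1-21.6 ES cells and 7 in F1-23 ES cells, with sums of 528 CPM in F1-21.6 and 574 CPM in F1-23. The stem cell filament Nes had 21.8 CPM in F1-21.6 and 107.5 CPM in F1-23, and Pax6 had 1.02 CPM in F1-21.6 and 5.23 CPM in F1-23, whereas Sox9 had 0.872 CPM in F1-21.6 and 0.113 CPM in F1-23. Neither these markers' nor the following ones' part in the members' ES levels was tested.

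Of 7 neuron genes, 1 was higher in F1-21.6 and 5 in F1-23, with sums of 11.8 CPM in F1-21.6 and 32.1 CPM in F1-23, and Dcx was at 0 in both. The 6 oligodendrocyte genes were all higher in F1-23 ES cells, with sums of 170 CPM in F1-21.6 and 193 CPM in F1-23. Most of these sums was Cnp, which differed little, with 148.0 CPM in F1-21.6 and 151.5 CPM in F1-23. Of 7 astrocyte genes, 1 was higher in F1-21.6 and 4 in F1-23. Neural crest genes summed to 48.35 CPM in F1-21.6 and 40.35 CPM in F1-23, with 2 of 5 higher in F1-21.6 and 3 in F1-23. Among 3 endoderm genes 2 were higher in F1-21.6 and 1 in F1-23. Forebrain and midbrain genes were split 2 and 2, and of 12 hindbrain and cord genes 2 were higher in F1-21.6 and 3 in F1-23. Fibroblast genes, which the feeder cells also express, summed to 3644 CPM in F1-21.6 and 3558 CPM in F1-23, a sum made mostly of Fn1, and 2 of 9 were higher in F1-21.6 and 7 in F1-23. Col1a1, a fibroblast collagen, had 17.6 CPM in F1-21.6 and 44.7 CPM in F1-23. In bulk RNA, fewer cells expressing a member and less RNA per cell cannot be told apart.

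Both alleles of every member were read in every NPC clone. A gene was counted as monoallelic in a library when at least 85% of its counts came from 1 allele and an exact binomial test passed, and as biallelic when neither allele exceeded 70%. Of the 56 pairs of member and clone 0 were monoallelic, 50 were biallelic and 6 lay between, and the 129 share ran from 20.8% to 70.7%. Of all autosomal genes with at least 20 counts in a library, 8.37%, 6.72%, 6.99% and 6.69% were monoallelic in clones 129, C2, G4 and E1.2, and 5.87% in F1-21.6 ES cells. The same held for 6.41%, 6.95%, 5.83% and 6.42% in clones mC3, mE6, mB4 and mG3, and for 5.12% in F1-23 ES cells.

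The mean allele ratio over the 8 clones differed from equality for 6 members, where 52.2% of the 11253 autosomal genes tested did, 26.6% toward 129 and 25.6% toward Cast. Gfra1 had the lowest 129 share, 33.2% ± 7.23 (SD, n = 8), below 50% in 8 of 8 clones (limma adjusted p = 0.00238). Galr2 had 35.4% ± 10.1, also below in 8 of 8 clones (limma adjusted p = 0.0105), and Frmd3 had 44.2% ± 3.84, below in 7 of 8 (limma adjusted p = 0.0107). The 3 genes without counts in F1-21.6 ES cells were thus the 3 read more from the Cast allele in NPC clones.

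The other members leaned toward 129 or were even. Nav3 had a 129 share of 57.7% ± 6.98 (limma adjusted p = 0.0108), Fam38b of 56.3% ± 6.29 (limma adjusted p = 0.0471) and Jakmip2 of 52.9% ± 3.17 (limma adjusted p = 0.0239), above 50% in 7, 6 and 7 of the 8 clones. Fzd2 had 50.8% ± 3.94, which did not pass (limma adjusted p = 0.631). The call for Fam38b was lost when any 1 of 6 clones was left out, and that for Jakmip2 without clone 129, C2 or mC3, where the adjusted p was 0.0533 to 0.0537. Alignment to 1 strain's sequence would move every such share, and this was not tested.

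**Figure D3:**
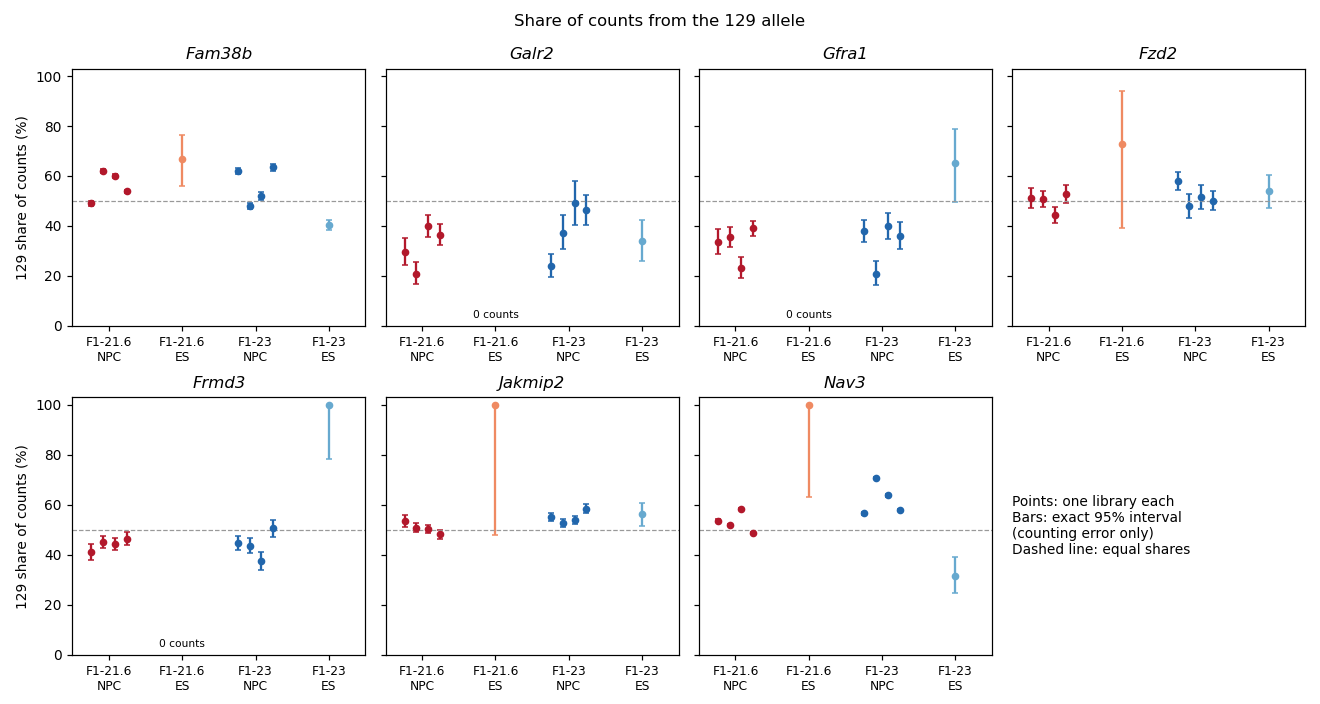
Share of counts from the 129 allele for each member in each library, in percent, with a panel per gene. Points are libraries, bars are exact 95% intervals that cover counting error only, and the dashed line marks equal shares. Clones of both lines overlap for every member, Gfra1 and Galr2 lie under the line in all 8 clones, and ES libraries with few counts have wide bars.

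No member passed the limma test of the allele ratio between the clone sets of the 2 lines, in which 3 of 11253 autosomal genes (0.0267%) passed. Jakmip2 had a 129 share of 50.7% ± 2.20 in F1-21.6 and 55.0% ± 2.44 in F1-23 (SD, n = 4 each), a log2 ratio difference of -0.25 (95% interval -0.48 to -0.02, limma adjusted p = 0.56, exact two-sided permutation p = 0.0571). Nav3 had 53.1% ± 4.04 in F1-21.6 and 62.2% ± 6.44 in F1-23, a difference of -0.55 (95% interval -1.07 to -0.04, limma adjusted p = 0.56, exact permutation p = 0.0857). For those genes the unadjusted interval leaves out 0, and for the other 5 it spans 0. The smallest p that 4 clones against 4 allow in the exact test is 0.0286.

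Galr2, with the widest interval, had 31.7% ± 8.41 in F1-21.6 and 39.2% ± 11.4 in F1-23, a log2 ratio difference of -0.47 with an interval of -1.48 to 0.54. Its clones ran from 20.8% in C2 to 49.2% in mB4. Fam38b split within both lines: clones 129, C2, G4 and E1.2 had 49.0%, 62.0%, 60.1% and 53.8%, and clones mC3, mE6, mB4 and mG3 had 62.2%, 48.0%, 52.1% and 63.5%. Each line thus held clones near equality and clones near 60%. The 2.69-fold higher NPC level of Fam38b in F1-21.6 was on both alleles, 85.5 ± 6.10 CPM in F1-21.6 and 32.02 ± 6.38 CPM in F1-23 from 129, and 67.9 ± 17.9 CPM in F1-21.6 and 25.1 ± 7.20 CPM in F1-23 from Cast (SD, n = 4 each).

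In F1-23 ES cells most members were read from both alleles. The 129 share was 40.5% for Fam38b, 33.8% for Galr2, 65.2% for Gfra1, 53.8% for Fzd2, 56.3% for Jakmip2 and 31.6% for Nav3. Those of Galr2, Fzd2 and Jakmip2 lay inside the range of the F1-23 clones and those of Fam38b, Gfra1 and Nav3 outside it. Frmd3 had a 129 share of 37.4% to 50.6% in the F1-23 clones and 100% in F1-23 ES cells, where its 15 counts (exact 95% interval 78.2% to 100%) were too few for a call. Nav3 was read mostly from 129 in all 4 F1-23 clones and mostly from Cast in their ES line, with an interval of 24.7% to 39.1% for the 129 share there.

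Few allele counts were left in F1-21.6 ES cells. Fam38b had 90 counts there, 66.7% of them from 129 (95% interval 56.0 to 76.3). Fzd2 had 11 counts, 72.7% from 129, and the 5 counts of Jakmip2 and the 8 of Nav3 were all from 129. At this depth those shares cannot be told from a wide range, down to 47.8% for Jakmip2 and 63.1% for Nav3.

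By allele, the rise in F1-23 was larger from 129 for Fam38b, 2.48-fold for 129 and 1.32-fold for Cast, and for Nav3, 297-fold for 129 and 84.0-fold for Cast. It was larger from Cast for Gfra1, 3.56-fold for 129 and 12.6-fold for Cast. Both alleles of Fzd2 rose alike, 2.02-fold for 129 and 2.14-fold for Cast, as did those of Jakmip2, 6.56-fold for 129 and 6.996-fold for Cast. Each of these folds rests on 1 ES library.

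Genes of the same families and pathways, 136 of which were tested, gave a comparison that the choice of members did not fix. In the contrast of the rises edgeR called 0 of the 136 at an adjusted p of 0.05, 15 had an unadjusted p under 0.05 (11.03%, against 10.97% of all genes), and DESeq2 called 4 of the 127 it tested (3.15%, against 4.09% of all genes). Their median difference of rises was 0.33 on the log2 scale, against 0.06 over all genes. In F1-21.6 58 were called higher and 21 lower in NPC clones than in ES cells, and in F1-23 50 were higher and 23 lower. Over all genes 28.0% were higher and 23.3% lower in F1-21.6, and 25.0% higher and 22.3% lower in F1-23. The same shares stand beside the pathway counts given below.

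Gfra2, the GDNF family co-receptor closest to Gfra1, came nearest to the threshold. It had 5.07 ± 1.03 FPKM in F1-21.6 clones and 0.0586 FPKM in their ES line, and 2.43 ± 0.298 FPKM in F1-23 clones and 0.208 FPKM in theirs (SD, n = 4 each). Its difference of rises was 3.10 on the log2 scale (SE 0.50, edgeR adjusted p = 0.0619), and it rose in both lines (edgeR adjusted p = 7.07e-05 in F1-21.6 and 0.000626 in F1-23). The receptor kinase Ret, which Gfra1 works with, was at 0.0997 ± 0.17 FPKM in F1-21.6 clones and 0.934 FPKM in their ES line, and at 0.021 ± 0.00745 FPKM in F1-23 clones and 0.816 FPKM in theirs. Ret did not pass in F1-21.6 (edgeR adjusted p = 0.145) and fell in F1-23 (edgeR adjusted p = 0.0431). Ncam1, the other partner, rose in both, with 71.2 ± 27.9 FPKM in F1-21.6 clones, 15.95 FPKM in their ES line, 41.7 ± 18.6 FPKM in F1-23 clones and 6.68 FPKM in theirs (edgeR adjusted p = 0.0199 in F1-21.6 and 0.0114 in F1-23). Of 19 GDNF pathway genes tested, 10 were higher and 1 lower in F1-21.6 NPC clones, and 8 higher and 3 lower in F1-23 NPC clones.

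The Frizzled family went in both directions. Fzd1, Fzd3 and Fzd4 rose in both lines, Fzd1 by 5.91 on the log2 scale in F1-21.6 and 4.81 in F1-23 (edgeR adjusted p = 0.000271 in F1-21.6 and 0.000552 in F1-23). Fzd5 and Fzd6 fell in both, Fzd5 by 3.87 in F1-21.6 and by 4.21 in F1-23 (edgeR adjusted p = 0.000176 in F1-21.6 and 0.000138 in F1-23). Fzd7 did not pass in F1-21.6, with 16.3 ± 5.87 FPKM in the clones and 28.5 FPKM in ES cells (edgeR adjusted p = 0.064). It fell in F1-23, to 7.31 ± 1.44 FPKM in the clones, against 47.6 FPKM in ES cells (edgeR adjusted p = 0.000394). Its difference of rises did not pass (edgeR adjusted p = 0.23). Of 48 Wnt pathway genes tested, 20 were higher and 9 lower in F1-21.6 NPC clones, and 17 higher and 8 lower in F1-23 NPC clones. Wnt7a, a ligand of neural progenitors, was the closest of them in the contrast of rises (edgeR adjusted p = 0.0948), with 13.2 ± 8.03 FPKM in F1-21.6 clones, 0.13 FPKM in their ES line, 14.3 ± 3.25 FPKM in F1-23 clones and 0.666 FPKM in theirs.

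**Figure D4:**
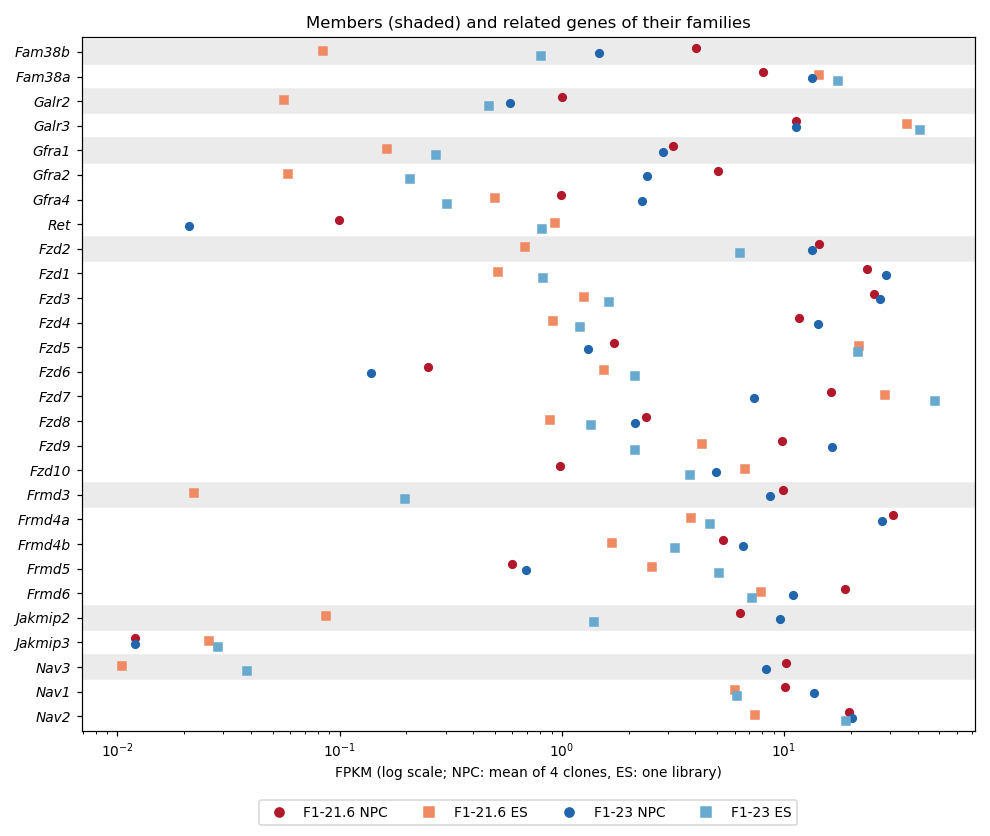
FPKM of the members (shaded rows) and of related genes in the table, on a log axis. Circles are means of 4 NPC clones and squares are single ES libraries, in red tones for F1-21.6 and blue for F1-23. For the members the F1-21.6 ES square lies left of the F1-23 one, as it does for all relatives shown except Gfra4, Ret, Fzd5, Fzd9, Fzd10 and Frmd6.

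The relatives of the other members are given with their own values. Fam38a, now Piezo1, the other force-gated channel of its family, had 8.03 ± 5.18 FPKM in F1-21.6 clones and 14.3 FPKM in their ES line, and 13.4 ± 2.48 FPKM in F1-23 clones and 17.5 FPKM in theirs, passing in neither line (edgeR adjusted p = 0.496 in F1-21.6 and 0.812 in F1-23). The galanin receptor Galr3 fell in both lines, by 1.73 on the log2 scale in F1-21.6 and by 1.94 in F1-23 (edgeR adjusted p = 0.00126 in F1-21.6 and 0.000789 in F1-23). Of 11 galanin pathway genes 7 were higher and 1 lower in F1-21.6 NPC clones, and 6 higher and 1 lower in F1-23 NPC clones, Gnaq, the G protein alpha subunit that couples to phospholipase C, being the one with the smallest adjusted p in both.

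Frmd4a, a FERM protein of epithelial polarity, rose by 3.11 on the log2 scale in F1-21.6 and by 2.50 in F1-23 (edgeR adjusted p = 0.000531 in F1-21.6 and 0.00134 in F1-23). Frmd5 fell in both, by 2.01 in F1-21.6 and by 2.91 in F1-23 (edgeR adjusted p = 0.0309 in F1-21.6 and 0.00629 in F1-23). Jakmip3 averaged 0.012 FPKM in the clones of each line, far under Jakmip2. Nav2 rose in F1-21.6 (log2 1.31, edgeR adjusted p = 0.03) and did not pass in F1-23 (log2 0.12, edgeR adjusted p = 0.822), and its difference of rises did not pass (edgeR adjusted p = 0.475). Nav1 had a log2 change of 0.80 in F1-21.6 that did not pass (edgeR adjusted p = 0.0645) and rose in F1-23 (log2 1.29, edgeR adjusted p = 0.0129).

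The nearest tested genes on the chromosome were read for comparison. Exoc7, an exocyst subunit whose row begins 162 bases after that of Galr2, rose in both lines, by 0.74 on the log2 scale in F1-21.6 and by 1.37 in F1-23 (edgeR adjusted p = 0.00444 in F1-21.6 and 0.000372 in F1-23), a difference of -0.63 that did not pass (edgeR adjusted p = 0.285). Kdm4c, a histone demethylase gene next to Frmd3, fell in both, by 2.35 in F1-21.6 and by 2.55 in F1-23 (edgeR adjusted p = 1.47e-05 in F1-21.6 and 1.27e-05 in F1-23). Atrnl1, next to Gfra1, rose by 3.13 in F1-21.6 and by 3.25 in F1-23 (edgeR adjusted p = 0.00257 in F1-21.6 and 0.0025 in F1-23), a difference of -0.12 (edgeR adjusted p = 0.9999). Napg, next to Fam38b, had 38.5 ± 4.78 CPM in F1-21.6 clones, 52.7 CPM in their ES line, 40.4 ± 1.92 CPM in F1-23 clones and 40.9 CPM in theirs. Rasef, on the other side of Frmd3, had 11 counts in F1-21.6 ES cells and 166 in F1-23 ES cells, but its clones varied too much for a call (log2 difference of rises 4.43, SE 3.13, edgeR adjusted p = 0.711).

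Profiles over the 10 libraries were compared by the root mean square distance of log2 CPM centred on each gene's own mean. A prior count of 2 was added, so that for genes with 0 or few counts in ES cells the depth of the ES values, and with it the distance, still depends on the gene's level. Among the members the closest pair was Jakmip2 and Gfra1, at 0.615, followed by Fam38b and Fzd2 at 0.622 and Fam38b and Galr2 at 0.627. The farthest was Fzd2 and Nav3, at 2.48. Distances between members use the same levels that chose them and that place F1-23 ES cells relative to NPC, so they are a description. Fam38b, Galr2 and Fzd2, whose F1-23 ES levels were nearest to NPC levels, lay within 0.656 of each other. Frmd3 and Nav3, the members with the largest rises in F1-23, were 0.83 apart.

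In the whole table, the genes nearest to each member included others of the same contrast. The choice of members by that contrast favours such neighbours, so nothing is read from it. Zfp608, a zinc finger gene, was nearest to Galr2 at 0.534 and had 23.6 CPM on average in F1-21.6 clones, 0.236 CPM in their ES line, 23.5 CPM in F1-23 clones and 8.60 CPM in theirs. Fat3, an atypical cadherin, was nearest to Frmd3 at 0.309. Sema6a, a transmembrane semaphorin of axon guidance, was nearest to Gfra1 at 0.464 and had 1.49 CPM in F1-21.6 ES cells and 45.4 CPM in F1-23 ES cells, without a call in the contrast. Mef2c, a neural and muscle transcription factor, was nearest to Nav3 at 0.484, and the row of the Mir9-2 host C130071C03Rik came next at 0.492. Nearest to Fam38b, Fzd2 and Jakmip2 were the noncoding row NR_040366 at 0.538, the unannotated fragment cuff_6835 at 0.34 and Gfra1 at 0.615.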

How the data were processed

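The members and the gene lists were chosen with earlier results of these data known. The series is RNA-seq of hybrid mouse ES lines and NPC clones; of 12 listed samples the table has columns for 10, and a second library each of C2 and mC3 is not used here. The deposited table gives, per the file headers, counts, a 129 ratio (the fraction of counts from the 129 allele) and FPKM per gene and library. TopHat 1.4.0, Cufflinks 1.3.0, SAMtools and mm9 are named in the submitters' processing notes; which tool made which column is not given in the sources used here. The deposited counts times the ratio were whole within 0.01 for 100% of autosomal values, so they were taken as allele-informative counts. Whether a fragment spanning several strain differences counts once is not given in the sources used here, and counting intervals are too narrow if it does not.

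Counts were fitted with edgeR 4.0.16 (R 4.3.3; TMM, filterByExpr, quasi-likelihood F test, 1 mean per group); the spread comes from the NPC clones, since each ES line is 1 library. CPM uses effective library sizes. Allele ratios were tested with limma 3.58.1 on log2((129 + 0.5)/(Cast + 0.5)) in autosomal genes with at least 20 counts in all clones. P-values were adjusted by Benjamini-Hochberg over all genes tested. A gene at 0 counts was set to a floor of 3 counts per library for folds. Single shares have exact Clopper-Pearson 95% intervals; reads carry no molecular identifiers, so intervals and floors cover counting error only. Named genes were the members, their closest paralogs, list genes nearest the threshold, the nearest tested neighbour on each side and the 3 nearest profiles. Alternatives were DESeq2 1.42.0, RLE scaling, no filter, FPKM with limma, other allele minimums and pseudocounts, and leaving out each clone. The scripts were tested on simulated data. That clones came from separate differentiations is not stated, so p-values measure the spread between these clones.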

Additional observations from a re-analysis of the deposited data

Results flagged for a closer look

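Among 42 groups of 4 clones, 3 held a clone far from the others by Dixon's test at 95%, where chance gives about 1 in 20. Fzd2 was lowest in E1.2 among the F1-21.6 clones, at 6.65 CPM, while the other clones had 9.01 to 9.19 CPM. Frmd3 was also lowest in E1.2, at 8.86 FPKM, and among the F1-23 clones it was lowest in mB4, at 6.77 FPKM.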

How the results depend on the processing

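All 7 members kept the larger rise in F1-21.6 under the 13 alternatives run, but on FPKM the log2 difference of rises was small for some. With pseudocounts of 0.1 and 1 it was 0.65 and 0.24 for Gfra1 (4.33 by counts), 0.63 and 0.32 for Nav3 (4.69), 1.47 and 0.40 for Frmd3 (2.68) and 2.41 and 0.61 for Jakmip2 (6.03). For Galr2 it was 2.55 and 0.81 (6.09), for Fzd2 3.13 and 2.21 (4.66) and for Fam38b 3.69 and 1.76 (6.01). Where edgeR called 15 genes in the contrast of rises, DESeq2 called 568 in all. With limma on FPKM the totals were 39 with a pseudocount of 0.1 and 291 with 1. Leaving out 1 clone gave 3 to 30, with 3 without mE6, 5 without G4, 8 without mC3 and 30 without clone 129. Fam38b was called in all 13 alternatives, Galr2 and Frmd3 in 9, Jakmip2 in 8, Fzd2 in 7, Nav3 in 6 and Gfra1 in 5, a description since these contrasts chose them. Between the clone sets 110 genes were called, against 1988 by DESeq2, 437 and 505 on FPKM with pseudocounts of 0.1 and 1, and 1 (without mG3) to 325 (without clone 129) with a clone left out, over 1.5 times apart from 110 for each of the 8 clones. The allele ratio between the clone sets gave 3 calls and 1 (without E1.2, mC3 or mE6) to 8 (without mB4), and 6 without C2. Counts of calls between NPC clones and ES cells and of mean allele ratios stayed within 1.5 times. The mean allele ratio of Fam38b lost its call without C2, G4, E1.2, mC3, mB4 or mG3 (adjusted p 0.0576 to 0.112). The causes were not tested. No paired analysis was possible because the labels name clones and give no replicate numbers that pair them across the lines. Limits are the single ES library per line, the unstated unit of a count, and depth, with 0 to 90 counts per member in F1-21.6.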
